A study of Mus musculus with 2 samples.

Results

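The endoplasmic reticulum (ER) genes described here are 43 genes of protein folding, membrane translocation, glycosylation, ER-associated degradation and the unfolded protein response, measured in mouse bone marrow eosinophils. They were chosen by name, and all 43 had an entry among the 23343 genes of the tables. Poly(A) RNA came from 2 separate sorts of CCR3+ SiglecF+ cells out of pooled marrow of C57BL6J mice that were naïve and untreated. Both sorts belong to 1 group, so the data hold no treated or second condition. The age and sex of the mice and the size of a pool are not stated here, and nothing says that the pools shared no animal. The libraries are called sort 1 and sort 2. Levels are given as RPKM, which divides reads by the length of the transcript and by depth, so that genes of different length can be set side by side. Each mean carries the SD over the 2 sorts, which is itself imprecise with n = 2.

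Proteins bound for granules, the cell surface or secretion enter the ER through the Sec61 channel, lose their signal peptide, receive N-linked glycans and fold with the help of luminal chaperones. Chains that fail to fold are passed back to the cytosol for destruction. When unfolded chains build up, the sensors IRE1 (Ern1), PERK (Eif2ak3) and ATF6 switch on the unfolded protein response, which raises chaperone and degradation genes and slows translation. Eosinophils store large amounts of cationic granule proteins, which pass through this route while the cell matures in the marrow. In mouse eosinophil development the transcription factor XBP1 is known to be needed for that maturation.

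Read totals were 10087743 for sort 1 and 9264150 for sort 2. All 10 eosinophil markers, including Prg2 and Ear1, reached 1 RPKM in each sort, and Ccr3 had 114 and 118 RPKM. The eosinophil markers had summed levels of 3482 and 4321 RPKM. Markers of other cells were present as well, and those of late neutrophils had sums of similar size. The 12 late neutrophil markers had summed levels of 4272 and 3998 RPKM, above the eosinophil markers in sort 1 and below them in sort 2. Retnlg and S100a9 were highest among them, and Retnlg had the highest mean level of all 23343 genes. A list of genes of primary granules or of neutrophil precursors had 345 and 432 RPKM, with Mpo and Igsf6 highest. Not all of its genes encode granule proteins, and Igsf6 alone had 91.7 and 140 RPKM of these sums. Cell cycle genes had summed levels of 76.0 and 104 RPKM, led by Mki67 and Top2a. The basophil and mast cell list, led by Cpa3 and Hdc, had 33.6 and 35.5 RPKM, and the monocyte and macrophage list, led by Ly6c2 and Csf1r, 86.3 and 66.7. Erythroid markers, led by Tfrc and Car1, had 6.83 and 9.93 RPKM. Plasma cells, which are rich in ER, were of particular relevance to these genes. The 12 plasma and B cell markers had summed levels of 11.9 and 7.58 RPKM, led by Pou2af1 and Cd79b. Cd79a had 133 and 57 reads, Irf4 138 and 114, Slamf7 107 and 123, Prdm1 12 and 13, and Tnfrsf13b 2 and 3. Among the remaining markers of this list, Mzb1 had 0 and 1 read, Igj 7 and 0 reads, and Sdc1 3 and 11 reads. Tnfrsf17 and Ly6k had no read in either sort, which allows up to 3 reads each. The part of neutrophils and precursors in the levels below was not tested. In bulk RNA, fewer cells with a transcript and less of it per cell cannot be told apart.

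Nearly the whole set was expressed, mostly at moderate levels. In each sort 41 of the 43 genes reached 1 RPKM, compared with 30.2% of all genes, and 9 reached 10 RPKM, compared with 5.55% of all genes. The exceptions at the low end were Trib3 and Sec61g. The median over the 43 was 4.43 RPKM in sort 1 and 4.12 in sort 2, while the median over the 7048 genes that reached 1 RPKM in each sort was 4.07 and 3.97. Of the 43, 22 lay above that median in sort 1 and 23 in sort 2. The set took 0.378% of the reads in sort 1 (95% Wilson interval 0.375 to 0.382) and 0.430% in sort 2 (0.426 to 0.435). These intervals cover counting error only, because without molecular identifiers several reads can stem from 1 molecule.

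The chaperone Hsp90b1 stood far above the other genes. Hsp90b1 encodes GRP94, the HSP90 of the ER, which folds integrins and Toll-like receptors, and lies at chromosome 10 from 86690841 to 86705444 on the minus strand in build mm10. It had 75.7 RPKM in sort 1 and 91.3 in sort 2, a mean of 83.5 ± 11.03 (SD, n = 2), and ranked 94 among the 23343 genes. This was 3.93 times the next gene in sort 1, Calr, and 3.64 times the next in sort 2, Pdia3. Hsp90b1 alone made up 22.7% and 25.9% of the summed RPKM of the 43 genes. Part of its transcript is not unique to it: 13.8% of its stretches of 50 bases also occur in annotated transcripts of 3 other genes, the overlapping gene 1810014B01Rik sharing the most, and 10.3% of its exon bases overlap exons on the opposite strand. Whether reads were counted by strand is not stated here.

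**Figure D1:**
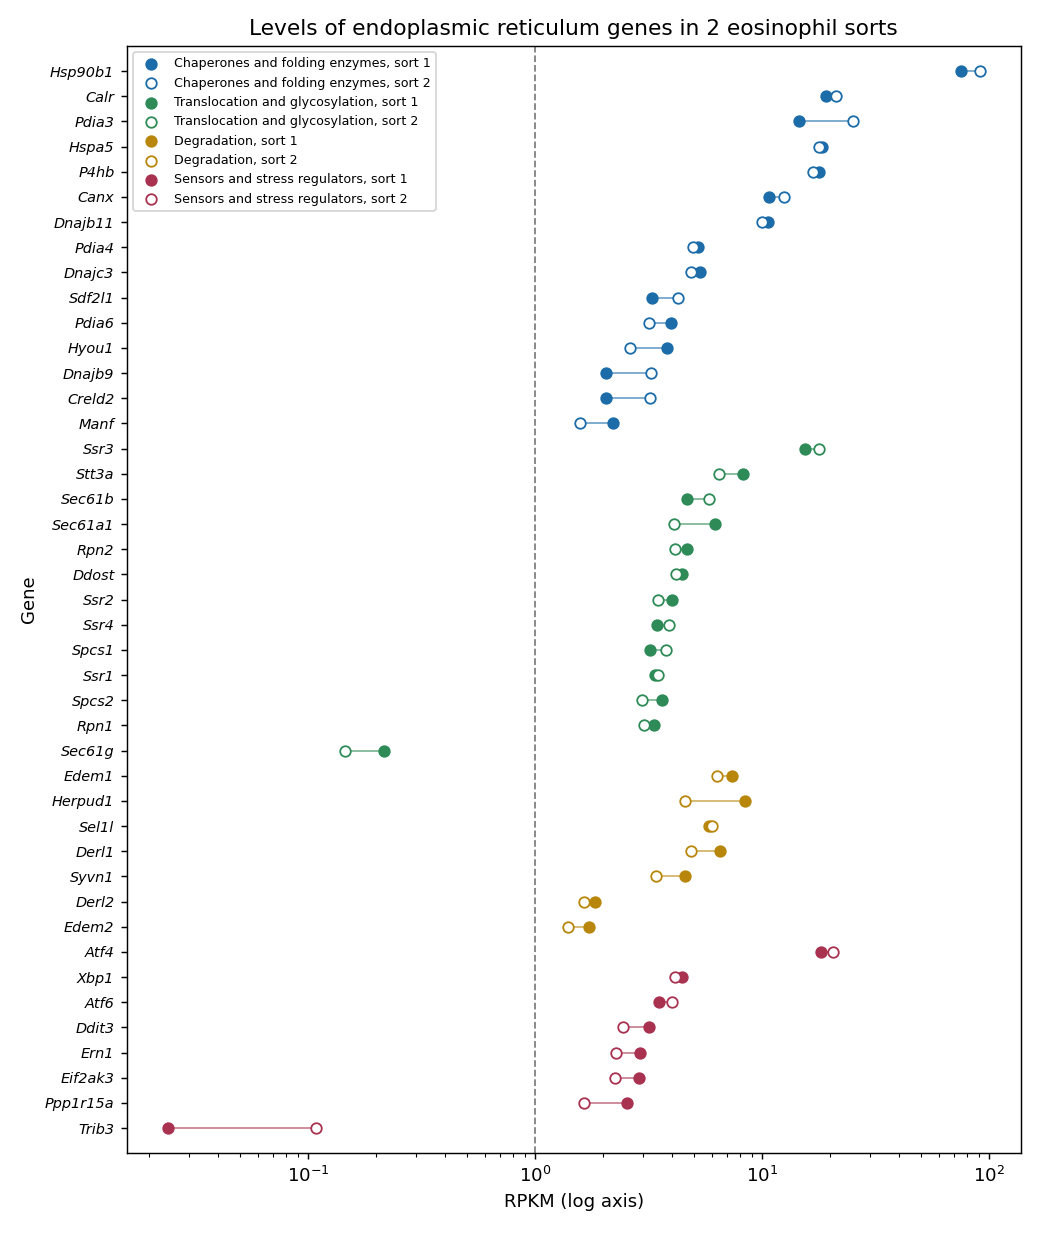
RPKM of each of the 43 genes in sort 1 (filled points) and sort 2 (open points) on a log axis, ordered by mean within 4 role groups, with a line joining the sorts and a dashed line at an RPKM of 1. Hsp90b1 sits at 75.7 and 91.3 RPKM, 9 genes lie at 10 or more in both sorts, and Sec61g and Trib3 are the only 2 genes below 1.

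Behind Hsp90b1 came a tier of 8 further genes between 10.4 and 20.3 RPKM on average. They were Calr, Pdia3, Atf4, Hspa5, P4hb, Ssr3, Canx and Dnajb11, in order of mean level. From Calr at 20.3 ± 1.44 to Ssr3 at 16.7 ± 1.62 RPKM (SD, n = 2) the ranges of the sorts overlapped for every pair of neighbours. By that measure the order of neighbours among these 6 genes is not resolved. Compared within each sort, it was resolved in part. Calr lay above Atf4, Hspa5, P4hb and Ssr3 in both sorts, Atf4 above P4hb and Ssr3, and Hspa5 above P4hb. Ssr3 lay above Canx in both sorts, Canx above Dnajb11, and Dnajb11 above Stt3a, the first gene of the lower tier. Across all 42 pairs of neighbours in the order of mean level, 7 had ranges of the sorts that did not overlap. The Spearman correlation of RPKM between the sorts over the 43 genes was 0.931, which describes genes measured in the same 2 libraries and carries no test. Of the 10 highest genes of each sort, 9 were shared.

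Among the HSP70 and HSP90 machinery, the central chaperone and its helpers differed widely. Hspa5 encodes BiP, the HSP70 that binds nascent chains and holds the stress sensors inactive, and it had 18.4 RPKM in sort 1 and 17.8 in sort 2. Its levels in the sorts were nearly equal. Dnajb11, a co-chaperone that delivers clients to BiP, had 10.7 and 10.04 RPKM, and Dnajc3, the co-chaperone P58IPK, had 5.31 and 4.88. Sdf2l1, which works with DNAJB11, had 3.28 and 4.25 RPKM. Hyou1, the large HSP70 that exchanges nucleotide on BiP, had 3.82 and 2.63 RPKM, well under BiP in both sorts. The lowest 3 by mean were Dnajb9, the co-chaperone that keeps IRE1 in check, at 2.05 and 3.25, Creld2, a stress-induced luminal protein, at 2.05 and 3.20, and Manf, a secreted protein that binds BiP, at 2.20 and 1.57. The 9 genes of this machinery thus covered a 44.2-fold range of mean RPKM from Manf to Hsp90b1.

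Lectin chaperones and disulfide isomerases were more even and, by their median, higher. Their 6 genes had medians of 12.6 RPKM in sort 1 and 14.7 in sort 2, against 3.82 and 4.25 for the 9 genes of the HSP70 and HSP90 machinery. Calr, calreticulin, the soluble lectin that retains glycoproteins until they fold, had 19.2 and 21.3 RPKM. Canx, calnexin, its membrane-bound relative, had 10.7 and 12.5, lower than Calr in both sorts. Pdia3, or ERp57, the isomerase that works with both lectins, had 14.6 and 25.1 RPKM, the widest gap between sorts in absolute RPKM among these 6 genes. P4hb, protein disulfide isomerase itself, had 17.9 and 16.8. Pdia4 had 5.23 and 4.96 and Pdia6 3.99 and 3.18 RPKM, so both of these isomerases lay below Pdia3 and P4hb in each sort.

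Several of these chaperone genes carry the ER stress response element (ERSE) close to their start, the site through which ATF6, XBP1 and the CCAAT-binding factor NF-Y act. ERSE was searched as CCAAT and CCACG separated by 9 bases of any kind, and ERSE-II as ATTGG, any base and CCACG, on both strands of RefSeq promoter sequences of build GRCm38.p6. Each promoter spans 300 bases, of which 50 lie after the transcript start. A promoter was held by 37 of the 43 genes, and the entries not found were Hyou1, Manf, Sec61a1, Ssr2, Derl1 and Atf6. ERSE was present in 8 of the 37, compared with 0.119% of all 32851 promoters, or 39 of them, and ERSE-II in 2 of the 37, compared with 0.0365%. Here and below the 37 genes are counted with 1 promoter each, whereas all promoters include several for some genes. Of the 27025 genes with a promoter, 0.137% had ERSE and 0.0444% ERSE-II in any of them. The element was first defined on promoters of genes like these, so its presence here is not independent evidence. The matches before the transcript start follow in the direction of the gene, with the element in capitals and 10 bases on each side. They are shown because they are the stress elements found in 7 chaperone or folding genes and 2 degradation genes. Where the element lies on the opposite strand, the capitals read CGTGG first and end in ATTGG.
Hspa5: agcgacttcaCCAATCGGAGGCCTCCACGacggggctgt
Hsp90b1: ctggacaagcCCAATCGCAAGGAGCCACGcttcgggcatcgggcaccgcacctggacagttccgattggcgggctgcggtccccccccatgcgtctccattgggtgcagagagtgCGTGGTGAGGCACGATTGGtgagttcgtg
Calr: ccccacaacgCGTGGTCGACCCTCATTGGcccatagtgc
Canx: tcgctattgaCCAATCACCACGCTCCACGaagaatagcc
Pdia6: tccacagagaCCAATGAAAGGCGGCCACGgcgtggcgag
Dnajc3: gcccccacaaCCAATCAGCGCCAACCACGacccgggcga
Creld2: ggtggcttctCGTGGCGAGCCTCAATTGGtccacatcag
Syvn1: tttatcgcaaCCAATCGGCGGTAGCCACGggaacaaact
Herpud1: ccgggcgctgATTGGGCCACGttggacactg

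The stretch for Hspa5 is chr2:34772015-34772053 on the plus strand, that for Hsp90b1 chr10:86705523-86705666 on the minus strand, and that for Calr chr8:84847065-84847103 on the minus strand. Canx is at chr11:50325790-50325828 on the minus strand, and the others are on the plus strand, with Pdia6 at chr12:17266481-17266519, Dnajc3 at chr14:118937817-118937855, Creld2 at chr15:88819510-88819548, Syvn1 at chr19:6046522-6046560 and Herpud1 at chr8:94386367-94386397. Hsp90b1 was the only one of the 37 with 2 exact ERSE matches, whose first bases lie at -212 and -107 when the start base is 0, on opposite strands. For 8 of the 37 genes the RefSeq start differs from the start in the deposited tables, most for P4hb, by 317 bases. For Herpud1 it lies 71 bases before the deposited start and for Pdia6 6 bases before. The remaining ERSE-II, in Dnajb11, lies after the transcript start, at bases 7 to 17, and is not printed. Of the 10 genes with either element, 8 are chaperones or folding enzymes and 2, Syvn1 and Herpud1, belong to degradation. None of the 11 translocation and glycosylation genes or of the 7 sensor and regulator genes with a promoter had an exact match in this window.

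Levels of genes with and without the elements overlapped. The 10 genes with ERSE or ERSE-II had median levels of 9.53 RPKM in sort 1 and 7.46 in sort 2, and a range of means from 2.62 for Creld2 to 83.5 for Hsp90b1. The 27 genes without an exact match had medians of 3.43 and 3.91, and means up to 19.8 for Pdia3. Among the chaperones and folding enzymes alone, 8 with an element had medians of 10.7 and 11.3 and 5 without had 5.23 and 4.96. The component letters were common, CCAAT being found in 28 of the 37 promoters compared with 37.4% of all promoters, and CCACG in 28 compared with 32.8%. Both stand inside ERSE and so overlap it. TGACGTGG, bound by XBP1, was found in 0 of the 37 and in 0.676% of all promoters. TGATGNAA, the core of the site bound by ATF4 with C/EBP factors, was found in Herpud1 and Trib3 and in 3.97% of all promoters. A match is a description of the letters, and no binding was measured.

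**Figure D2:**
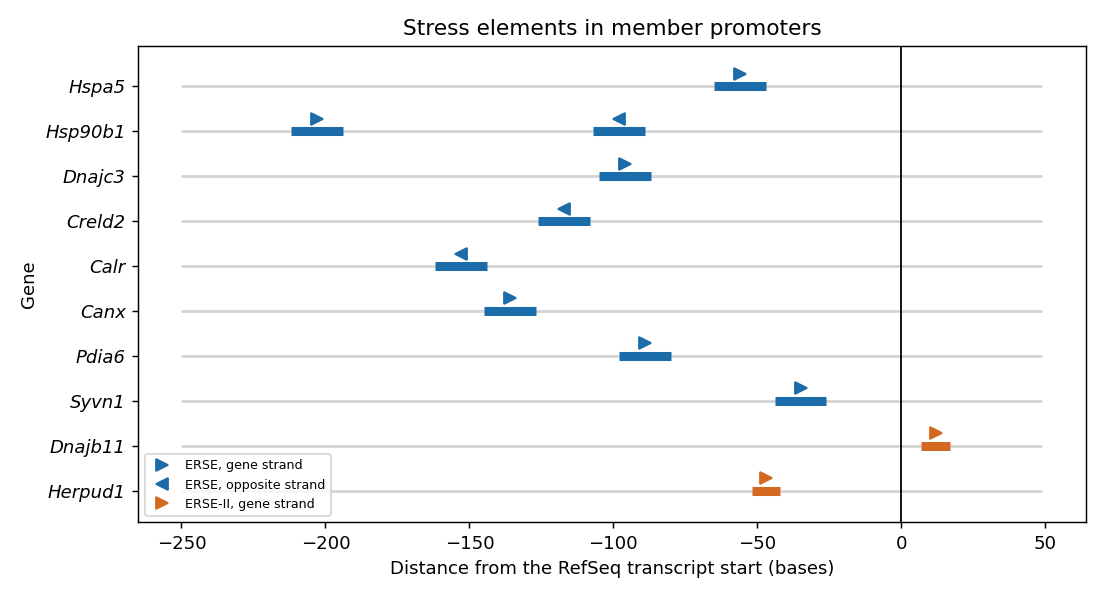
Position of exact ERSE (blue) and ERSE-II (orange) matches in the promoters of the 10 genes that hold one, in bases from the RefSeq transcript start at 0, with arrowheads giving the strand relative to the gene and grey lines the sequence searched. Hsp90b1 has 2 matches, and Dnajb11 is the only gene whose match lies after the start.

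Most translocation and glycosylation genes lay within a narrow band, but Sec61g and Ssr3 lay far outside it. From Sec61g to Ssr3 the group spanned 92.5-fold in mean RPKM, against 44.2-fold for the 15 chaperones and folding enzymes. The 13 genes had medians of 4.01 RPKM in sort 1 and 3.91 in sort 2. All but Ssr3, Stt3a and Sec61g had means between 3.20 and 5.27 RPKM. Ssr3, the gamma subunit of the translocon-associated protein (TRAP) complex that assists translocation, stood apart at 15.5 and 17.8 RPKM. Its partners Ssr1, Ssr2 and Ssr4, the alpha, beta and delta subunits, had means of 3.43 ± 0.0611, 3.75 ± 0.361 and 3.67 ± 0.341 (SD, n = 2), and each lay below Ssr3 in both sorts. Mean transcript levels across this complex spanned 4.87-fold. Ssr1 and Ssr3 differed less in reads than in RPKM, with 1275 and 1311 reads for Ssr1 and 1816 and 2089 for Ssr3. Their annotated transcripts have 9333 and 2957 bases, and whether the cells use the full length of Ssr1 was not tested. The signal peptidase subunits Spcs1 and Spcs2, which belong to the complex that removes signal peptides, differed by little, with 3.22 and 3.79 RPKM for Spcs1 and 3.61 and 2.96 for Spcs2. Which of the 2 was higher changed from sort to sort.

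The channel itself showed the most unequal subunits, which rested on the few reads of Sec61g. Sec61a1, the pore-forming subunit, had 6.20 RPKM in sort 1 and 4.12 in sort 2, and Sec61b, the beta subunit, had 4.70 and 5.84. Sec61g, the small gamma subunit, which the channel also needs, had 0.216 and 0.145 RPKM, from 6 and 3 reads. For Sec61g 44.4% of stretches of 50 bases recur in transcripts of 5 other annotated genes, Gm10177 most of all, and for Sec61b 41.0% recur in 3 others. How the authors treated reads that match several places is not stated here, so the levels of Sec61g and Sec61b are uncertain, and the part of shared sequence in the low count of Sec61g was not tested. For Sec61a1 14.6% of such stretches recur, in Gm44170, a gene whose exons overlap it on the opposite strand. Of the 43 genes, 26 shared no stretch of 50 bases with another annotated gene and 5 shared over 10%, the fifth being Spcs1 with 17.6%, from Glt8d1.

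In the oligosaccharyltransferase, which attaches N-linked glycans, the catalytic subunit Stt3a was the highest of 4 subunits in the set. Stt3a had 8.23 RPKM in sort 1 and 6.46 in sort 2. The structural subunits Rpn1, Rpn2 and Ddost had means of 3.20 ± 0.226, 4.40 ± 0.387 and 4.32 ± 0.174 (SD, n = 2). Stt3a was above all 3 in both sorts, and Rpn1 was the lowest in both. These 4 subunits together spanned 2.30-fold in mean RPKM. Ost4 and Dad1, subunits outside the set, were higher than Stt3a in each sort, with 40.3 and 42.8 RPKM for Ost4 and 11.2 and 6.91 for Dad1.

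Degradation genes had a median level close to that of the chaperones but no gene at an RPKM of 10. The 7 genes had medians of 5.83 RPKM in sort 1 and 4.57 in sort 2. Edem1, a lectin-like mannosidase family member that routes misfolded glycoproteins to degradation, had 7.39 and 6.34 RPKM, while its relative Edem2 had 1.72 and 1.40. Herpud1, a stress-induced membrane component of the degradation complex, had 8.38 and 4.57, the widest gap between sorts in this group. Sel1l, the adaptor of the HRD1 ubiquitin ligase, had 5.83 and 6.03 RPKM, and Syvn1, the ligase HRD1 itself, had 4.57 and 3.43, lower than its adaptor in both sorts. The derlins, which form part of the exit channel, also differed from each other, with Derl1 at 6.56 and 4.85 RPKM and Derl2 at 1.83 and 1.64. Syvn1 had a second row for an alternative transcript, at 0 reads in both sorts, as did Ssr4, which allows up to 3 reads each.

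Stress sensors were low, and the regulators downstream ranged from high to almost absent. Ern1, the IRE1 kinase and endoribonuclease, had 2.89 RPKM in sort 1 and 2.27 in sort 2. Eif2ak3, the PERK kinase that phosphorylates the translation factor eIF2 alpha, had 2.86 and 2.25, so the kinases had nearly the same level in each sort. Atf6, the membrane-bound transcription factor, had 3.52 and 4.02 RPKM and lay above both in each sort. Atf4, the transcription factor whose translation rises when PERK is active, had 18.2 and 20.6 RPKM, a mean of 19.4 ± 1.70 (SD, n = 2), and was the only one of these 8 genes above 10. Xbp1, whose mRNA is spliced by IRE1, had 4.43 and 4.13 RPKM. Its 2 RefSeq transcripts share 1 row of the tables, so these values do not separate transcript forms and say nothing of IRE1 activity.

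Genes that mark a strong or lasting stress response were at the low end. Ddit3, or CHOP, the factor of stress-induced death, had 3.16 and 2.44 RPKM from 111 and 86 reads. Ppp1r15a, or GADD34, which reverses the phosphorylation of eIF2 alpha, had 2.54 and 1.65. Trib3, a pseudokinase induced by ATF4 and CHOP, had 0.0241 and 0.108 RPKM, from 2 and 9 reads, and was the lowest of the 43 genes in both sorts. Atf4 was thus 6.91 times Ddit3 in mean RPKM. These are transcript levels in untreated cells, and no stressed sample was there for comparison.

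Set beside each other, chaperones and degradation genes were above sensors in both sorts, and chaperones were above translocation genes by less. On the log2(RPKM + 1) scale the median of the 15 chaperones and folding enzymes exceeded that of the 8 sensors and regulators by 0.65 in sort 1 and 0.83 in sort 2, a mean of 0.74 ± 0.13 (SD, n = 2). It exceeded that of the 13 translocation and glycosylation genes by 0.33 and 0.28, a mean of 0.31 ± 0.038. The difference from the 7 degradation genes was -0.11 in sort 1 and 0.10 in sort 2, so these groups did not differ in a constant direction. Degradation genes exceeded sensors by 0.76 and 0.73. With 2 libraries no test was made, because an exact two-sided sign test cannot give a p below 0.5. The groups hold different genes, and each held genes on both sides of the median of expressed genes.

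Further genes of the same functions, taken from 4 lists, also had high leaders and a broad remainder, but not the same order of groups. Of 39 other chaperones and folding enzymes 28 reached 1 RPKM in each sort, led by Erp29, a luminal protein of the disulfide isomerase family, at 23.2 ± 6.005, Rcn1, a calcium-binding protein, at 12.6 ± 0.848, and Ppib, a cyclophilin, at 8.997 ± 1.81 (SD, n = 2). Of 30 other translocation genes 20 did, led by Ost4, a small oligosaccharyltransferase subunit, at 41.6 ± 1.76, Sec11c, a catalytic subunit of signal peptidase, at 24.8 ± 3.22, and Tram1 at 10.5 ± 1.72. Ost4 was well above Stt3a, Rpn1, Rpn2 and Ddost in both sorts, and Sec11c was above Spcs1 and Spcs2. Of 27 other degradation genes 24 did, with Ubxn4 at 14.2 ± 0.787 and Bcap31 at 10.3 ± 0.656 among the highest. Of 36 other stress signalling genes 20 did, led by Serp1, a small protein of the translocon, at 46.3 ± 5.07, Nfe2l2, the antioxidant factor NRF2, at 21.8 ± 4.73, and Crebrf at 11.6 ± 0.418. Medians were 2.28 and 2.21 RPKM for other chaperones and 4.43 and 4.62 for other translocation genes. Other degradation genes had 4.80 and 4.43 and other stress signalling genes 1.64 and 1.48. Unlike within the set, other chaperones thus lay below other translocation genes in each sort. They also lay below other degradation genes in each sort.

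**Figure D3:**
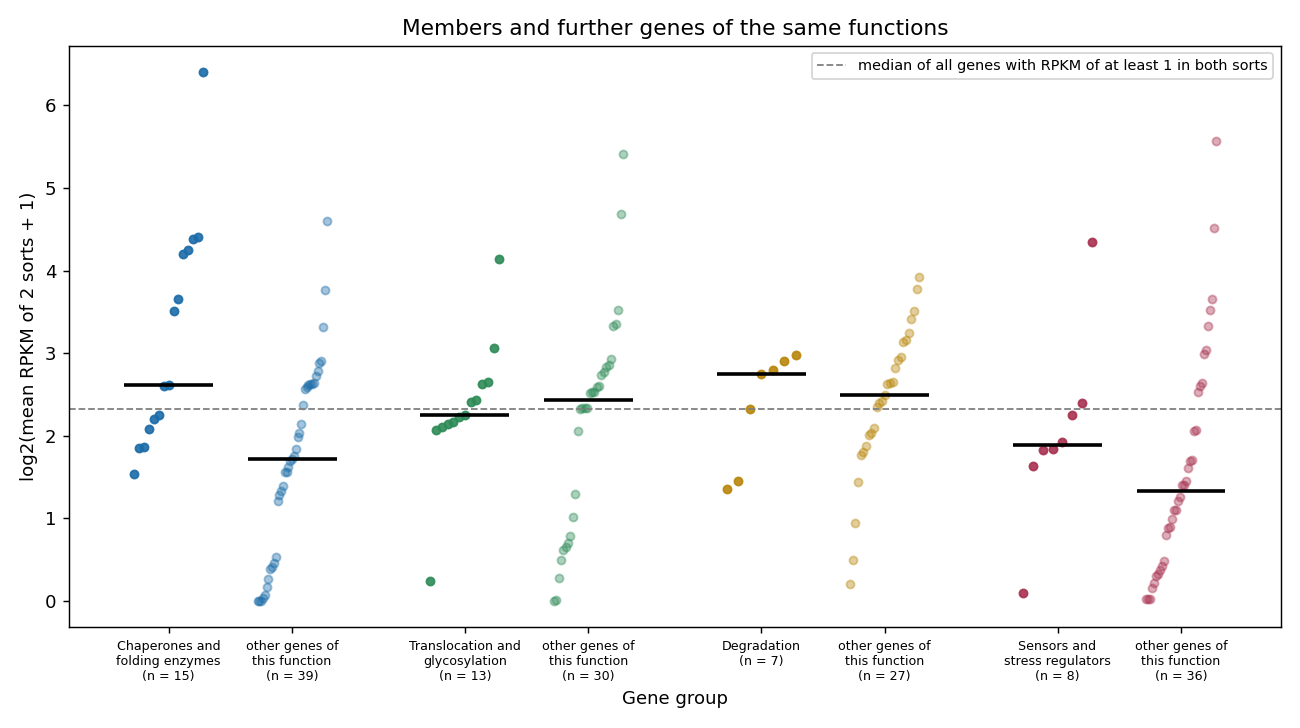
Mean RPKM of the 2 sorts on a log2(RPKM + 1) scale for the 43 genes in 4 role groups (dark points) and for further genes of each function (pale points), with black bars at the group medians and a dashed line at the median of the genes that reach 1 RPKM in each sort. Among the 43 genes, chaperones and degradation genes have medians above that line, and translocation genes and sensors below it. The medians of other chaperones and of other stress signalling genes also lie below it. Hsp90b1 is the highest point.

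The sorts were then compared for each gene by the ratio of sort 2 to sort 1 in TMM-scaled CPM, which divides counts by a library size scaled so that most genes have equal levels. A gene was called different at 1.5-fold or more either way, among genes whose 2 libraries summed to 10 reads or more. Each sort has 1 library, so this describes 2 libraries of 1 group and has no replicate check. Of the 43 genes 42 had enough reads, Sec61g having 9, and 5 were called, compared with 26.1% of all 12347 genes tested. In sort 2, 4 were higher, compared with 11.5% of all genes, and in sort 1, 1 was higher, compared with 14.7%. Genes with few reads pass such a limit more often. Among the 41 of these genes with at least 100 reads, 4 were called, compared with 15.8% of all genes with that many.

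The genes called higher in sort 2 were Pdia3, Dnajb9, Creld2 and Trib3. Pdia3 had 1560 reads in sort 1 and 2693 in sort 2, a ratio of 1.81-fold with a log2 value of 0.85 and a 95% exact (Clopper-Pearson) interval from 0.77 to 0.95. Dnajb9 had 155 and 246 reads and a log2 ratio of 0.73 (0.44 to 1.03), and Creld2 113 and 177 reads and 0.71 (0.37 to 1.07). Trib3 rested on 2 and 9 reads, with a log2 ratio of 1.504 and an interval from -0.035 to 5.49 that includes 0. Herpud1 was the gene called higher in sort 1, with 635 and 347 reads and a log2 ratio of -0.80 (-0.997 to -0.61). Of the genes called, Creld2 was nearest to 1.5-fold, at 1.63-fold. Of those not called, the nearest were Ppp1r15a, higher in sort 1 at 1.46-fold, Sec61a1 at 1.43-fold and Hyou1 at 1.38-fold.

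Most of the 42 genes differed by less, yet often by more than counting error. The interval excluded 0 for 25 of the 42, 12 higher in sort 2 and 13 higher in sort 1, compared with 49.7% of all genes tested. Ratios above 0 were found for 17 of the 42, compared with 49.9% of all genes. The median log2 ratio was -0.026 over the 42 and -0.00031 over all genes tested. By role it was 0.025 for chaperones, with 8 of 15 above 0, -0.041 for translocation genes, with 5 of 12, -0.23 for degradation genes, with 1 of 7, and -0.15 for sensors and regulators, with 3 of 8. Sel1l, at 0.13, was the degradation gene above 0. In the sensor group Atf6 and Atf4 were above 0, at 0.26 and 0.25, beside Trib3. Xbp1, Ern1, Eif2ak3, Ddit3 and Ppp1r15a were below, at -0.029, -0.27, -0.28, -0.29 and -0.55. The intervals of Xbp1, Ddit3 and Trib3 included 0.

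**Figure D4:**
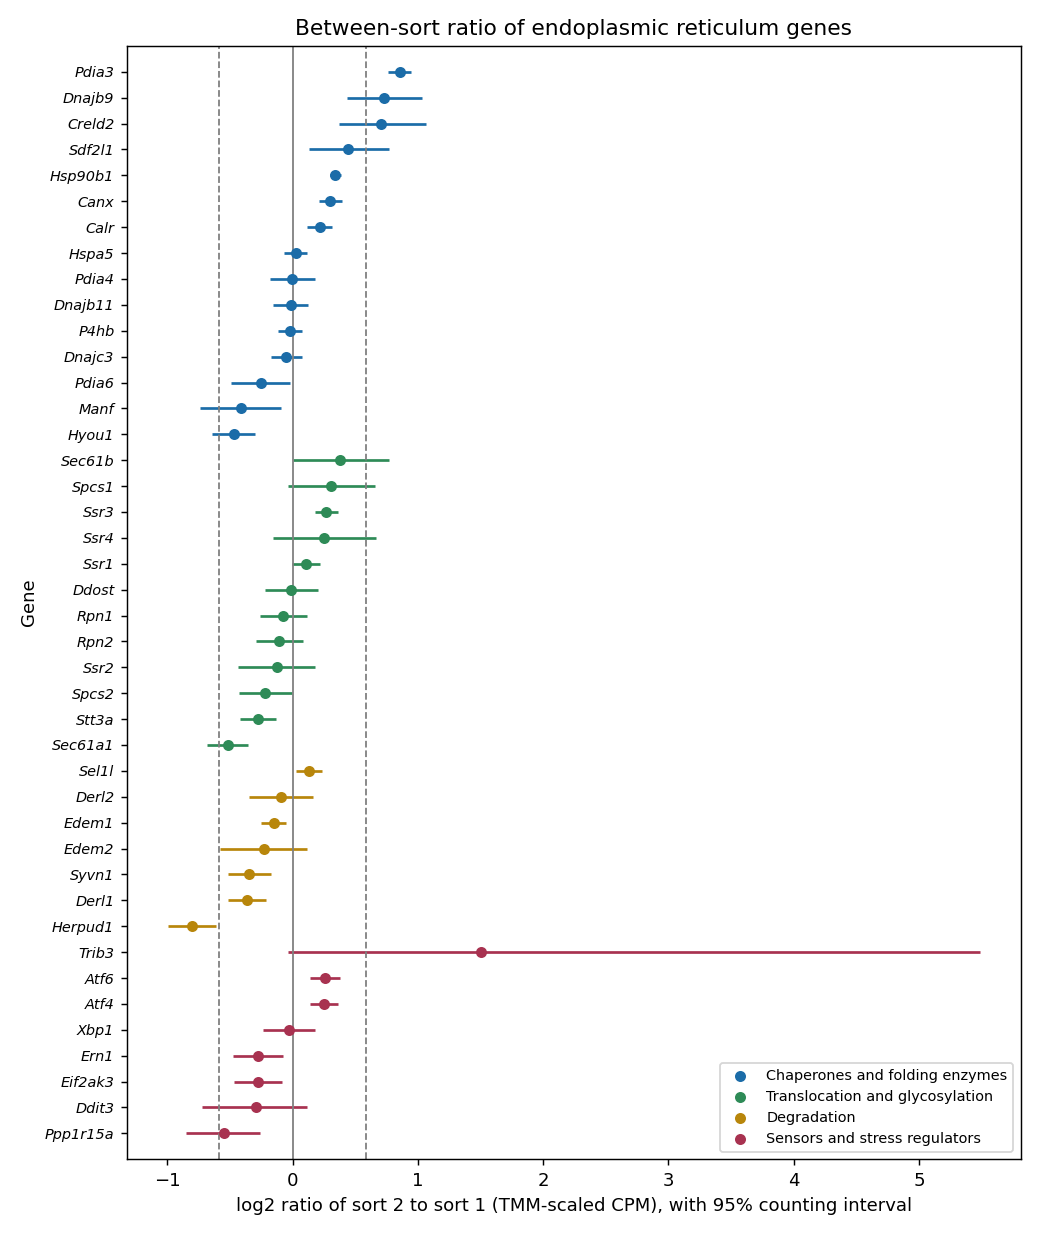
Ratio of sort 2 to sort 1 on a log2 scale for the 42 genes with at least 10 reads together, by role group, with points at the ratio of TMM-scaled CPM and bars for the 95% counting interval. The solid line marks 0 and the dashed lines 1.5-fold either way. Pdia3, Dnajb9, Creld2 and Trib3 lie beyond the upper dashed line and Herpud1 beyond the lower one, and the bar of Trib3 reaches below 0.

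Calls changed with the test. Requiring also an adjusted p under 0.05 in an exact binomial test of the 2 libraries left 3 genes higher in sort 2 and 1 higher in sort 1, Trib3 being lost, compared with 18.2% of all genes called either way. By edgeR's exact test with the common dispersion of the 2 libraries, none of the 42 passed an adjusted p of 0.05, compared with 0.267% of all genes, or 33, and 0 of the 42 had an unadjusted p under 0.05, against 760 of all genes. The biological coefficient of variation behind that test was 0.232, and it was estimated from the same 2 libraries.

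Other measures moved between the sorts as well. Ratios followed the GC content of transcripts, with a Spearman correlation of -0.539 over 8680 genes with at least 100 reads and -0.275 over the 41 of these genes with as many, as descriptions across genes of the same 2 libraries. After a smooth correction for GC content, Pdia3 had a log2 ratio of 0.76, Creld2 0.92, Sdf2l1 0.72 and Herpud1 -0.66, all beyond 1.5-fold, as was Trib3. Stt3a reached -0.59, and Dnajb9 dropped to 0.41, short of 1.5-fold. The median of sensors and regulators turned from -0.15 to 0.027 and that of translocation genes from -0.041 to 0.0045, while chaperones had 0.049 and degradation genes -0.26. The list of primary granule or precursor genes had a median log2 ratio of 0.47, with 6 of 6 above 0. Cell cycle genes had 0.28, with 13 of 16 above 0, late neutrophil markers -0.23, with 3 of 12, and plasma and B cell markers -0.20, with 3 of 7 tested. Monocyte and macrophage markers had a median of -0.36, with 2 of 12 above 0, and basophil and mast cell markers 0.18, with 5 of 9 tested. Erythroid markers had 0.54, with 9 of 10 above 0, and eosinophil markers 0.24, with 9 of 10 above 0. Their part in the ratios of the ER genes was not tested.

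Among the further genes of these functions with at least 50 reads together, 13 lay beyond 1.5-fold. Higher in sort 2 were Tmx3, an ER thioredoxin, by 1.97-fold, Ero1lb, which oxidises disulfide isomerases, by 1.55-fold, Herpud2 by 1.67-fold, Creb3l1 by 1.54-fold and Wfs1 by 4.03-fold, the last with 19 and 79 reads. Herpud2, with 668 and 1063 reads, thus lay on the opposite side from its relative Herpud1. Higher in sort 1 were Dad1, an oligosaccharyltransferase subunit, by 1.56-fold, Krtcap2 by 1.87-fold, Srprb by 1.74-fold, Sec61a2 by 1.60-fold, Man1b1 by 1.60-fold, D10Wsu52e, now Rtcb, the RNA ligase that joins spliced Xbp1, by 1.58-fold, Traf2 by 2.43-fold and Bbc3 by 2.14-fold. Counting every tested gene of these lists, 2 of 34 other chaperones were higher in sort 2 and 1 in sort 1, 1 and 4 of 28 other translocation genes, 2 and 1 of 27 other degradation genes, and 4 and 5 of 33 other stress signalling genes, compared with the shares of 11.5% and 14.7% given above.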

How the data were processed

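Poly(A) RNA of 2 sorts was sequenced from stranded dUTP libraries, per the labels' protocols. Reads were aligned with STAR 2.4.0c to mm10, per the submitters' processing notes. The counting program, its strand setting and filters were not stated. Deposited values were raw read counts and the authors' RPKM per group of RefSeq transcripts, per the file headers. The RPKM divisor implied by rows with 1 transcript was 4.01 and 4.37 times the tables' totals, so RPKM values are low in absolute size. Because this factor differs between the sorts, ratios of RPKM between sorts differ from those of scaled counts, which were used for the between-sort comparison. Rows of the same symbol were summed, 45 rows for the 43 genes; starts are counted from 1. The genes and lists were chosen with earlier results of these data known; all 43 genes, the 3 highest of each further list, its genes beyond 1.5-fold with at least 50 reads together, and the 2 highest of each marker list are named. Of the genes this rule takes, 1 is not reported here. Levels were compared as medians, with no test. Between-sort ratios used edgeR 4.0.16 (TMM, prior count 2) and exact binomial intervals; edgeR's quasi-likelihood test has no contrast within 1 group. DESeq2 1.42.0 size factors served as an alternative. Adjustment was by Benjamini and Hochberg over all 12347 genes tested. Shared stretches of 50 bases, exon overlap and GC content came from GENCODE M21 transcripts matched by RefSeq accession, for all 43 genes. The fold rule was tested on simulated data. Where nothing says that the pools came from separate animals, the spread between sorts may be technical. Alternatives are in the closing section. Of the genes on the lists, Fam8a1, Ly6g, Hbb-b2 and Ahsp had no entry matched under their own name.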

Additional observations from a re-analysis of the deposited data

How the results depend on the processing

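The 41 of 43 genes that reached 1 RPKM became 37 at a minimum of 2 and stayed 41 at 0.5, by CPM, by the highest row and in each sort alone. With means in place of medians, levels were 7.97 RPKM for all 43 genes against 4.27, 13.9 against 5.14 for chaperones, 4.94 against 3.96 for translocation genes and 4.69 against 2.69 for sensors. The excess of chaperones over translocation genes, 0.306, was 0.366 with a pseudocount of 0.1, 0.834 with means and 1.11 by CPM, and that over sensors, 0.739, was 0.918, 1.14 and 1.06. The difference from degradation genes was 0.826 with means and 0.588 by CPM. Each sort alone gave levels of 4.12 to 4.43 for all 43, and differences of 0.279 to 0.333, -0.115 to 0.0991 and 0.649 to 0.829 from translocation, degradation and sensor genes. Genes higher in sort 2 numbered 1 at a fold of 2 and 0 by edgeR's exact test, in place of 4. Those higher in sort 1 numbered 0 at a fold of 2, 0 by edgeR's exact test, 2 with at least 1 read together (Sec61g added), 3 by the deposited RPKM and 2 after the GC correction, in place of 1. The median log2 ratio of sensors, -0.15, was 0.0746 as a mean, which Trib3 with 2 and 9 reads raises, and 0.0266 after the GC correction, which also turned that of translocation genes from -0.0415 to 0.00446. Among single genes, the GC correction moved 16 of 42 ratios by more than the mean distance from the ratio to a bound of its counting interval, total counts 1 and the deposited RPKM 1. No called gene changed direction under another scaling, prior count or GC correction. Genes with under 100 reads together, Sec61g and Trib3, are limited by depth. No paired analysis was possible because there is 1 group. Other limits are that both libraries contain neutrophil and precursor transcripts, that 2 libraries give an imprecise SD, and that transcript forms sharing a row are not separated.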
